A study of Mus musculus with 4 samples.

Results

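Cullin-RING ligases are modular enzymes that attach ubiquitin to proteins. A cullin is the scaffold: its one end holds the RING subunit Rbx1, which brings the ubiquitin-loaded enzyme, and its other end holds an exchangeable receptor that picks the substrate. F-box proteins are the receptors of Cul1 and bind it through Skp1, while BTB-Kelch proteins such as Keap1 are the receptors of Cul3 and bind it directly. In neural precursors these enzymes are known for destroying cell cycle regulators and the active form of Notch. The genes described here are the rows of the deposited table with a symbol of the Cul, Fbxo, Fbxw, Fbxl or Klhl series followed by a digit, or the symbols Skp1a, Skp2, Rbx1 and Keap1. They numbered 110 of 21738 listed genes. Among them were 8 cullins, the shared subunits Skp1a and Rbx1, 68 F-box receptor genes (Skp2 included), 31 Klhl genes (Keap1 included) and Fbxl12os, which RefSeq annotates as a transcribed pseudogene and not as a receptor.

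RNA was measured after immunoprecipitation from neurospheres, floating cultures of neural precursors, grown for 7 days from the ventricular-subventricular zone of wild-type CD1 mice aged P7/P8. The precipitating antibody recognised 4E-T, a P-body protein that binds eIF4E, in 2 libraries and was a control IgG for the remaining 2, and 1 library of each antibody is labelled Exp1 and 1 Exp2. All 4 libraries share the genotype, strain, age and culture time, and no source used here says whether a culture pooled animals or whether libraries came from separate cultures, so the spread behind each p-value may be technical only. Values are scaled per library, with reads divided by factors of 1.14 and 1.10 with IgG against 0.931 and 0.877 with 4E-T. Recovered reads over the listed genes did not follow these factors, at 85828188 and 77919577 with IgG against 85451469 and 72769612 with 4E-T. A difference in FPKM is therefore relative to this scaling. It shows neither a change in a transcript's share of the reads nor how much RNA an antibody recovered. All 12 neural precursor markers were tested, with a summed FPKM of 3699 and 3831 with IgG against 5746 and 4349 with 4E-T. The summed level of 5 astrocyte markers was 348 and 312 against 821 and 650, most of it from Aldh1l1, while Aqp4 was called lower (-0.53, limma adjusted p = 0.00177), Slc1a2 and S100b lay below IgG and Gja1 overlapped. That of 6 oligodendrocyte markers was 113 and 110 against 201 and 192. Of 7 microglia and blood markers 2 were listed, with a summed FPKM of at most 0.122, and of 5 muscle markers 3 were listed, with at most 0.434. The part of these markers in the results was not tested, and in bulk cultures fewer cells of a type and less RNA per cell cannot be told apart.

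The start regions of 3 cullin genes are shown because Cul7 and Cul9, which both rose, are near neighbours on chromosome 17, 103949 bases apart, and because Cul3 had the lowest difference of the cullins. Each is the 100 bases before the RefSeq start (GRCm38.p6), with matches to the ETS core (CCGGAA, or TTCCGG on the other strand) or to GCATGC in capitals.
Cul7, chr17:46650238-46650337, plus strand: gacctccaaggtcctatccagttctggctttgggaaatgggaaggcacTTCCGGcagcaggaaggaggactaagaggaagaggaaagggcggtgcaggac
Cul9, chr17:46546389-46546488, minus strand: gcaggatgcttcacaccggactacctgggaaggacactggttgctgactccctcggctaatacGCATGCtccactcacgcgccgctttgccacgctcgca
Cul3, chr1:80340691-80340790, minus strand: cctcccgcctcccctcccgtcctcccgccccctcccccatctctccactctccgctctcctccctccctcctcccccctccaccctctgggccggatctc
The ETS core was found in 7.23% and GCATGC in 3.35% of 32851 such windows, and no match was shared by Cul7 and Cul9. The GC content was 57% for Cul7, 61% for Cul9 and 74% for Cul3, against a median of 55%. The immunoprecipitation measured transcripts, so these letters describe the loci and bear on no difference below.

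Members had to reach an FPKM (reads per kilobase of exon, scaled per library) of 1 in at least 2 libraries to be tested, and 84 of 110 did. Klhl15 passed through its IgG libraries alone. A gene was called when the limma p, adjusted over all 12585 tested genes, was under 0.05, and differences are 4E-T minus IgG on the scale of log2(FPKM + 1), which understates the change of low genes. Of the 84 tested members 28 were higher and 1 was lower with 4E-T, and 49.5% of all tested genes were called in either direction. Over all tested genes 34.3% were higher and 15.2% lower, so the 33.3% of members called higher was near the background, while the share called lower was 1.19%. The scaling of the libraries set part of these counts, since 17 members were higher and 6 lower with median ratio scaling (background 22.8% and 23.6%) and 18 and 6 with quantile normalisation (background 25.1% and 22.5%). Their median log2 difference was 0.22 against 0.16 for all tested genes. The FPKM of both 4E-T libraries lay above those of both IgG libraries for 53 members (background 50.5%) and below for 9 (background 25.2%). On the scale of log2(FPKM + 1), Fbxo38 was the sole member called at 2-fold or more, where 3.57% of all tested genes were higher and 1.91% lower by that much. In the authors' deposited table the log2 fold changes of Cul7 and Cul9 were also above 1, at 1.03 and 1.02.

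The 8 cullin scaffolds split into those that rose with 4E-T and those that did not. Cul7 and Cul9, a closely related pair of large cullins, rose most, Cul1 and Cul2 rose less, and Cul3, Cul4a, Cul4b and Cul5 were not called. Cul7 (ENSMUSG00000038545.13; chromosome 17, 46650338 to 46664364), whose product works with the F-box protein Fbxw8, had FPKM of 18.8 and 17.2 with IgG against 43.7 and 30.2 with 4E-T. Both 4E-T libraries lay above both IgG libraries, and the first of them was the higher by a wide margin. The log2 difference was 0.97 ± 0.16 (SE, n = 2 per antibody; limma adjusted p = 2.31e-05), or 1.96-fold in FPKM + 1. Cul9 (ENSMUSG00000040327.16; chromosome 17, 46500609 to 46546388), also known as Parc, had 3.92 and 3.58 with IgG against 8.41 and 6.76 with 4E-T. Its level was the lowest of the cullins in every library, yet its log2 difference of 0.85 ± 0.14 (limma adjusted p = 1.06e-05) was the second in size.

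Cul1, the scaffold of the SCF ligases that use F-box receptors (ENSMUSG00000029686.15; chromosome 6, 47453732 to 47526144), was the most abundant cullin in every library. Its FPKM were 73.1 and 64.9 with IgG against 112 and 95.5 with 4E-T, without overlap. The log2 difference was 0.58 ± 0.15 (limma adjusted p = 0.00260), but the gene was not called when IgG library 2 was left out (0.50, limma adjusted p = 0.107). Cul2, the scaffold that holds the von Hippel-Lindau protein through elongins, had 25.4 and 19.2 with IgG against 32.8 and 28.8 with 4E-T. The groups did not overlap (0.46 ± 0.15, limma adjusted p = 0.0116), but the call did not hold without IgG library 2 (0.27, limma adjusted p = 0.280), without 4E-T library 1 (limma adjusted p = 0.0822), with median ratio scaling (0.28, limma adjusted p = 0.0994), with quantile normalisation (limma adjusted p = 0.0808), with the length trend removed (limma adjusted p = 0.0714) or with no filter (limma adjusted p = 0.0613).

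Cul3, the scaffold of the Kelch receptors (ENSMUSG00000004364.14; chromosome 1, 80264923 to 80340690), had FPKM of 45.1 and 34.2 with IgG against 32.8 and 31.6 with 4E-T. Both 4E-T libraries lay below both IgG libraries, the second pair narrowly. The log2 difference of -0.28 ± 0.15 was not called (95% interval -0.58 to 0.02; limma adjusted p = 0.119). It was called lower with median ratio scaling (-0.46, limma adjusted p = 0.0120), quantile normalisation (-0.47, limma adjusted p = 0.00627) and the length trend removed (-0.49, limma adjusted p = 0.00672), and was -0.09 without IgG library 1 (limma adjusted p = 0.731). The DDB1-linked scaffolds Cul4a and Cul4b had FPKM of 63.1 and 54.3 against 65.5 and 53.5, and of 8.37 and 7.52 against 8.52 and 7.41. Their groups overlapped, with log2 differences of 0.01 (95% interval -0.30 to 0.33) and 0.00 (-0.28 to 0.28). Cul5, the scaffold of the SOCS-box receptors, also overlapped, with 15.4 and 12.3 against 13.8 and 13.6 and a difference of -0.01 (-0.30 to 0.28).

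Skp1a (Skp1 in RefSeq), the linker between Cul1 and F-box proteins, was more abundant than any cullin, with FPKM of 177 and 196 with IgG against 220 and 201 with 4E-T. Rbx1, the RING subunit of most cullins, had 130 and 144 against 148 and 138. Neither was called, with log2 differences of 0.17 (95% interval -0.16 to 0.51) and 0.07 (-0.26 to 0.39). The gene of Skp1a overlaps Tcf7, and reads were not assigned by strand, since SMART-Seq libraries do not mark it.

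**Figure D1:**
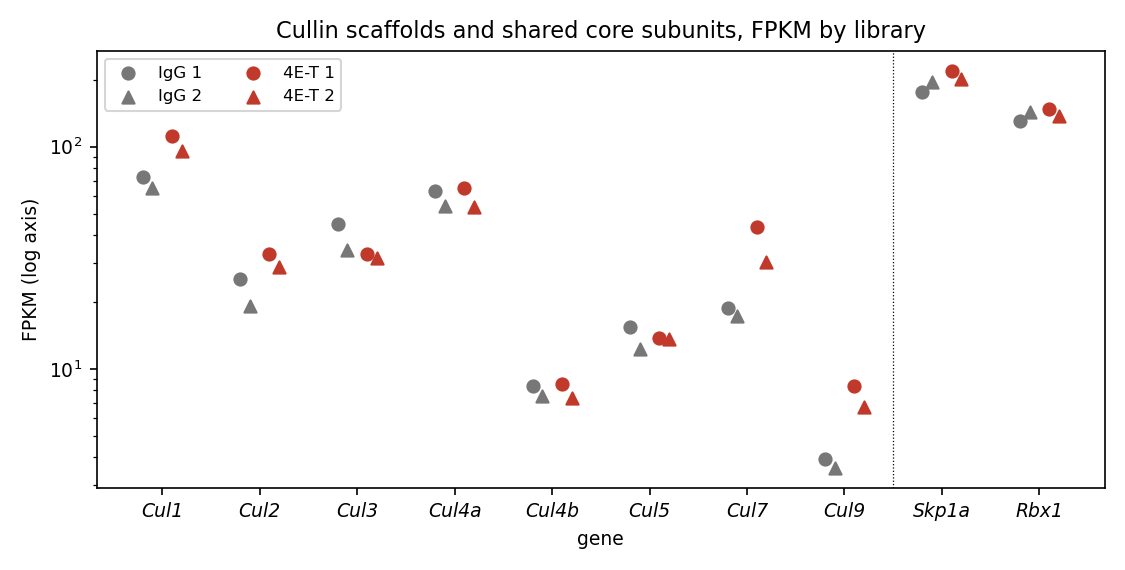
FPKM (log axis) of the 8 cullins, Skp1a and Rbx1 in each library, with IgG in grey and 4E-T in red; circles are Exp1 and triangles Exp2. Both red points lie above both grey points for Cul1, Cul2, Cul7 and Cul9, and narrowly for Skp1a, and below them for Cul3.

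Ratios between cullins within a library do not depend on a scaling factor of that library. By FPKM with IgG, the order was Cul1, Cul4a, Cul3, Cul2, Cul7, Cul5, Cul4b and Cul9. The values of Cul2 and Cul7 lay close (25.4 and 19.2 against 18.8 and 17.2), as did those of Cul7 and Cul5 with 15.4 and 12.3 for the latter. With 4E-T, Cul7 (43.7 and 30.2) overlapped Cul3 (32.8 and 31.6) and Cul2 (32.8 and 28.8). Cul1 made up 28.9% and 30.4% of the summed cullin FPKM with IgG and 35.3% and 35.7% with 4E-T. Cul3 went from 17.8% and 16.1% to 10.3% and 11.8%, and Cul7 from 7.42% and 8.09% to 13.7% and 11.3%. None of these shares overlapped between antibodies.

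Each Cul1 to Cul3 ratio was higher with 4E-T, at 3.42 and 3.02 against 1.62 and 1.89 with IgG. By contrast the ratio of the paralogues Cul7 and Cul9 was 4.80 and 4.82 with IgG against 5.19 and 4.46 with 4E-T, and that of Cul4a to Cul4b was 7.55 and 7.22 against 7.68 and 7.22. The last pairs of ratios overlapped, so neither ratio differed between antibodies beyond the spread of the libraries. With 2 libraries per antibody an exact two-sided permutation test of a ratio cannot go below p = 0.3333, so the ratios are given as values. Of the 15 pairs computed, 9 did not overlap, 5 of them higher and 4 lower with 4E-T. No background share was computed for ratios. For the FPKM of single genes, 50.5% of all tested genes lay above IgG without overlap and 25.2% below.

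**Figure D2:**
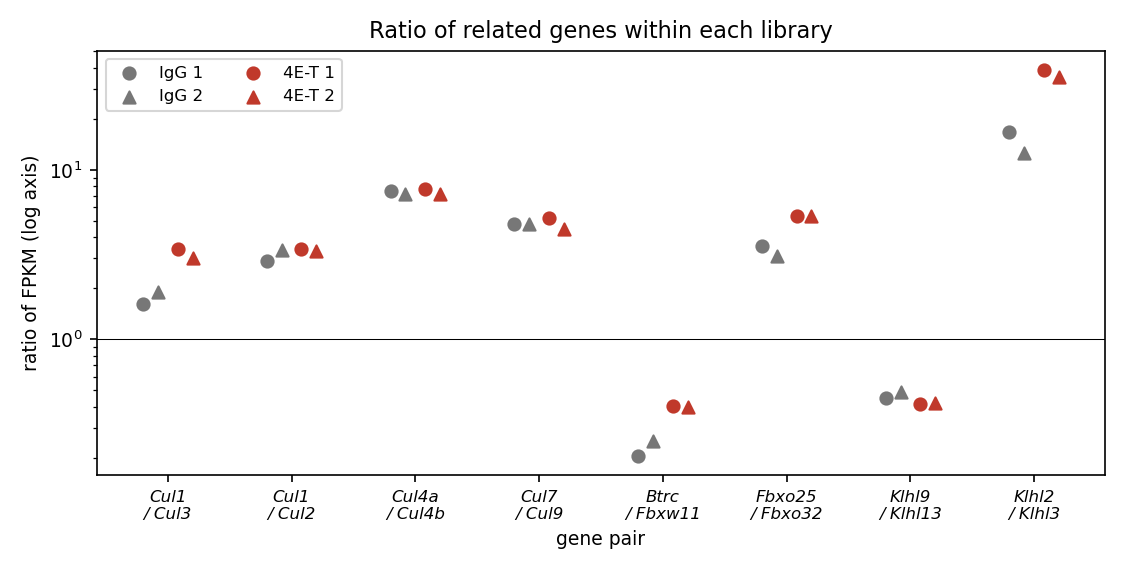
Ratio of the FPKM of related genes within each library (log axis), with IgG in grey and 4E-T in red; circles are Exp1 and triangles Exp2. The ratios of Cul1 to Cul3, Btrc to Fbxw11, Fbxo25 to Fbxo32 and Klhl2 to Klhl3 were higher with 4E-T, Klhl9 to Klhl13 was lower, and the other plotted pairs (Cul1 to Cul2, Cul4a to Cul4b and Cul7 to Cul9) overlapped.

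As groups, scaffolds and receptors differed little. The median log2 difference was 0.24 over the 8 cullins, 4 of them called higher, and 0.22 over the 73 tested receptor genes, 24 of them higher and 1 lower. These calls were 50% of the cullins, and 32.9% higher and 1.37% lower for the receptors. Over all tested genes 34.3% were higher and 15.2% lower, so the receptors' share called higher was near the background. The cullin median minus the receptor median was 0.012, and was -0.04 in Exp1 and 0.09 in Exp2. Without single libraries it ranged from -0.08 (without IgG library 2) to 0.11 (without IgG library 1), and with no filter, where low receptor genes enter, it was 0.13. The receptor families had medians of 0.13 (Fbxw, 8 tested), 0.18 (Fbxl with Skp2, 14 tested), 0.24 (Fbxo, 29 tested) and 0.29 (Klhl with Keap1, 22 tested). The single cullins ranged from -0.28 to 0.97. The order of Fbxo and Klhl turned in 6 of 12 alternatives, for example with quantile normalisation (0.13 for Fbxo and 0.11 for Klhl).

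**Figure D3:**
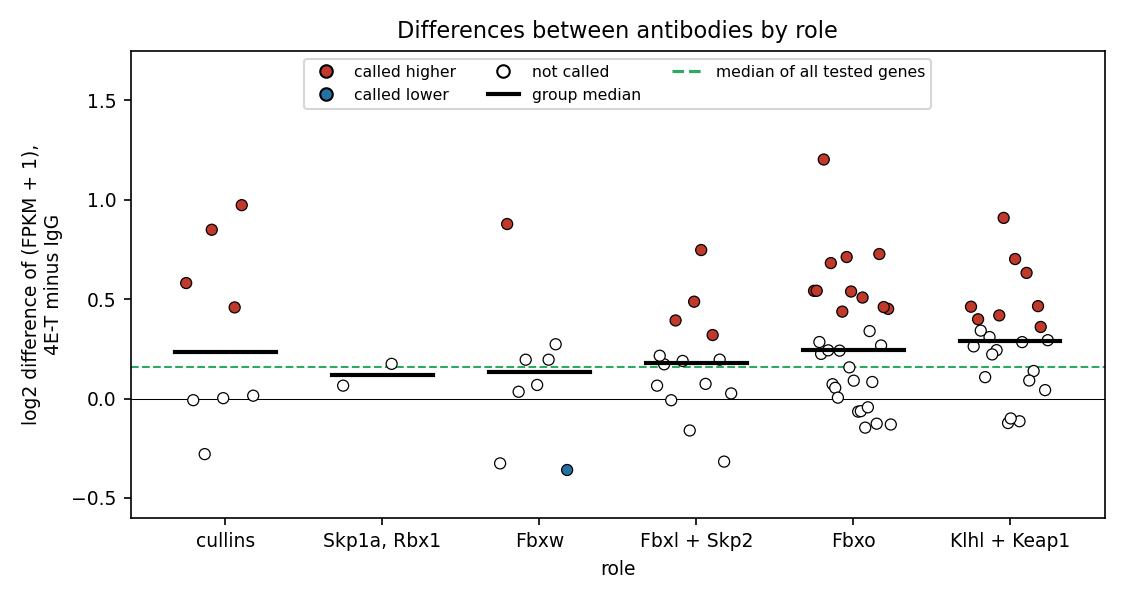
Log2 difference between antibodies (4E-T minus IgG, log2 of FPKM + 1) for each tested member by role; filled points are called, black bars are group medians, and the dashed line is the median of all tested genes, 0.16. The bars lie between 0.12 and 0.29, while the cullins reach from -0.28 to 0.97.

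F-box proteins of the Fbxw type read their substrates with a WD40 propeller, and 1 of 8 tested genes rose and 1 fell. Each is a share of 12.5%, against 34.3% higher and 15.2% lower over all tested genes. Fbxw7, which targets cyclin E, Myc, Jun and the Notch intracellular domain (ENSMUSG00000028086.15; chromosome 3, 84814990 to 84979198), had FPKM of 15.1 and 13.1 with IgG against 27.0 and 26.4 with 4E-T. Both 4E-T values were near each other and well above IgG, a log2 difference of 0.88 ± 0.14 (limma adjusted p = 9.48e-06). Fbxw4, the gene of the dactylaplasia locus, overlaps Dpcd (ENSMUSG00000040913.10; chromosome 19, 45578254 to 45660520). It had 15.4 and 14.7 with IgG against 11.4 and 11.6 with 4E-T, without overlap, and its difference of -0.36 ± 0.14 was the sole lower call (limma adjusted p = 0.0298). That call was lost without any single library (limma adjusted p from 0.0799 to 0.130) and with no filter (limma adjusted p = 0.0534). At an unadjusted limma p under 0.05, 3 members were lower, Fbxl16, Fbxw11 and Fbxw4.

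Fbxw11 and Btrc encode the paired receptors called beta-TrCP, which recognise phosphorylated beta-catenin and the NF-kappa-B inhibitor, and Btrc is an F-box gene whose symbol lies outside the series. Among the members, Fbxw11 was the most abundant receptor gene by the mean over the 4 libraries, though not with 4E-T alone. It had FPKM of 89.5 and 71.1 with IgG against 65.4 and 61.6 with 4E-T. Its 4E-T values were both below the IgG values, a difference of -0.33 ± 0.15 that was not called (limma adjusted p = 0.0780) but was with median ratio scaling (-0.51, limma adjusted p = 0.00691), quantile normalisation (limma adjusted p = 0.00203), the length trend removed (limma adjusted p = 0.00501) and the replicate block (limma adjusted p = 0.0406). Btrc had 18.4 and 17.9 with IgG against 26.5 and 24.4 with 4E-T, and was called higher (0.47 ± 0.14, limma adjusted p = 0.00620). The ratio of Btrc to Fbxw11 was thus 0.206 and 0.251 with IgG against 0.406 and 0.396 with 4E-T. Fbxw8, the receptor that Cul7 uses, had 32.9 and 28.4 against 39.0 and 35.3, without overlap and not called (0.27, 95% interval -0.02 to 0.57). Fbxw5, the second most abundant of the family, was at 40.7 and 39.5 against 42.1 and 42.1 (0.07), and Fbxw2, Fbxw9 and Fbxw17 had differences of 0.03, 0.20 and 0.20.

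Receptors of the Fbxl type carry leucine-rich repeats, and 4 of 14 tested genes rose and 0 fell at an adjusted p under 0.05. The share called higher was 28.6%, against 34.3% of all tested genes. Fbxl4, a mitochondrial protein gene known for restraining mitophagy (ENSMUSG00000040410.14; chromosome 4, 22357526 to 22434091), had FPKM of 6.09 and 5.04 with IgG against 10.5 and 9.47 with 4E-T. The groups were apart, with a log2 difference of 0.75 ± 0.14 (limma adjusted p = 6.19e-05). Fbxl17, which removes faulty BTB dimers, followed with 0.49 ± 0.14 (limma adjusted p = 0.00393), and was not called without IgG library 2, without 4E-T library 1 or with the length trend removed. Fbxl15, whose gene overlaps Cuedc2, was higher by 0.39 (limma adjusted p = 0.0194) and Fbxl19, a CpG-binding family member, by 0.32 (limma adjusted p = 0.0452). Both of the latter calls were lost without any single library and with median ratio scaling or quantile normalisation.

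Skp2, the receptor for the cell cycle inhibitor p27, had FPKM of 10.2 and 8.81 with IgG against 12.2 and 10.2 with 4E-T. The nearest IgG and 4E-T values were practically equal, and the difference of 0.22 was not called (95% interval -0.07 to 0.50). The most abundant Fbxl genes by mean FPKM were Fbxl6, at 28.1 and 27.0 against 30.0 and 33.5, and Fbxl14, which overlaps Wnt5b, at 16.9 and 19.1 against 17.9 and 20.2. Neither was called. Fbxl5, the iron-sensing receptor, had a difference of -0.01 with overlapping groups. Fbxl16 had 6.84 and 7.63 with IgG against 5.22 and 6.02 with 4E-T, and its difference of -0.32 was just short of the threshold (limma adjusted p = 0.0512). It was called lower in 7 of 12 alternatives, among them a minimum FPKM of 5 (limma adjusted p = 0.0394) and median ratio scaling (limma adjusted p = 0.00936). Fbxl7, Fbxl12, Fbxl18 and Fbxl20 had differences from -0.16 to 0.19. Fbxl12os was not called (0.27, limma adjusted p = 0.102).

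The Fbxo class, F-box proteins with other substrate domains, had 11 of 29 tested genes higher and 0 lower at an adjusted p under 0.05. Its share called higher, 37.9%, was near the 34.3% of all tested genes. Fbxo38 (ENSMUSG00000042211.6; chromosome 18, 62504059 to 62548863), known in T cells as the receptor for the checkpoint protein PD-1, had FPKM of 24.0 and 20.4 with IgG against 60.5 and 45.2 with 4E-T. Its lower 4E-T library was far above its higher IgG library, and its difference of 1.20 ± 0.15 (limma adjusted p = 4.77e-07) lay at percentile 98.6 of all tested genes. Fbxo5, known as Emi1, an inhibitor of the anaphase-promoting complex (chromosome 10, 5799158 to 5805465), had 20.1 and 21.8 with IgG against 36.1 and 34.6 with 4E-T (0.73 ± 0.14, limma adjusted p = 9.56e-05). It had the shortest exon length, 1940 bp, of the 12 members called in every alternative.

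Further down the class, Fbxo30 had 11.8 and 10.3 with IgG against 19.2 and 18.2 with 4E-T (0.71, limma adjusted p = 0.000125), and Fbxo46 had 3.48 and 3.27 against 6.35 and 5.69 (0.68, limma adjusted p = 0.000107). Fbxo31, a receptor for cyclin D1, and Fbxo10, a receptor for BCL2, were both higher by 0.54 (limma adjusted p = 0.00220 and 0.00155), Fbxo31 not without IgG library 2. Fbxo18, the DNA helicase listed as Fbh1 in RefSeq and the second of the class by mean FPKM, had 38.8 and 32.6 against 57.6 and 47.2. It was higher by 0.54 ± 0.15 (limma adjusted p = 0.00384), but not without IgG library 2 or without 4E-T library 1. Fbxo11, a receptor for BCL6 whose gene overlaps Msh6, was higher by 0.51, Fbxo34 by 0.46, Fbxo25 by 0.45 and Fbxo42 by 0.44. These 4 calls were chosen for naming after their values were seen, and none was called without IgG library 2 or with quantile normalisation.

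Several Fbxo genes with well-known roles were not called. Fbxo21, the most abundant by the mean over the 4 libraries, had FPKM of 44.5 and 38.8 with IgG against 55.6 and 50.3 with 4E-T, without overlap and just short of the threshold (0.34, limma adjusted p = 0.0533). Fbxo7, a parkinsonism gene, had a difference of 0.28 (limma adjusted p = 0.0745). The sugar-binding receptor genes Fbxo2, Fbxo6, Fbxo17, Fbxo27 and Fbxo44 had differences of 0.22, 0.16, 0.27, -0.07 and -0.13. Fbxo45, a receptor of neural development, had 22.3 and 19.6 against 19.9 and 20.1, which overlapped. Fbxo32, the muscle atrophy gene atrogin-1, was at 2.99 and 2.93 against 2.58 and 2.57 (-0.15), and its relative Fbxo25 rose, so that the ratio of Fbxo25 to Fbxo32 was 3.56 and 3.09 with IgG against 5.33 and 5.36 with 4E-T. The remaining tested genes, Fbxo3, Fbxo4, Fbxo8, Fbxo9, Fbxo16, Fbxo22, Fbxo28, Fbxo33 and Fbxo36, had differences from -0.13 to 0.24.

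Kelch receptors join a BTB domain, which binds Cul3, to a Kelch propeller, and 8 of 22 tested genes were higher and 0 lower at an adjusted p under 0.05. The share called higher, 36.4%, was near the 34.3% of all tested genes. Klhl25 (ENSMUSG00000055652.14; chromosome 7, 75848338 to 75874133), known as the receptor through which Cul3 removes unphosphorylated 4E-BP1, a competitor of 4E-T for eIF4E, had the largest difference. Its FPKM were 35.3 and 31.2 with IgG against 64.9 and 61.6 with 4E-T. The groups were far apart, with a log2 difference of 0.91 ± 0.14 (limma adjusted p = 9.15e-06). Klhl22, a receptor of mitosis and of amino acid signalling to mTORC1 (chromosome 16, 17759621 to 17793382), had 27.2 and 21.5 with IgG against 41.6 and 38.4 with 4E-T (0.70 ± 0.15, limma adjusted p = 0.000244).

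Klhl2 and Klhl3 encode related receptors for WNK kinases. Klhl2 had FPKM of 11.6 and 9.98 with IgG against 16.7 and 17.8 with 4E-T and was higher by 0.63 ± 0.14 (limma adjusted p = 0.000466). Klhl3 was under the minimum, at 0.695 and 0.790 with IgG against 0.430 and 0.504 with 4E-T. The ratio of Klhl2 to Klhl3 was 16.7 and 12.6 with IgG against 38.8 and 35.3 with 4E-T, and this comparison rests on 230 to 500 reads of Klhl3 per library. In 4 further pairs of Fbxo or Klhl genes the ratios did not overlap either. The ratio of Klhl24 to Klhl25 was 0.377 and 0.375 in the IgG libraries and 0.203 and 0.236 in the 4E-T libraries. That of Klhl21 to Klhl22 was 0.987 and 1.01 against 0.570 and 0.682, and that of Fbxo34 to Fbxo46 was 3.89 and 3.37 against 2.72 and 3.002. Klhl5 to Klhl4 was higher, at 81.9 and 81.0 against 59.3 and 66.0 with IgG.

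Klhl9, Klhl13 and Klhl21 act on Aurora B during mitosis. Klhl13, the most abundant Kelch gene among the members, had 62.4 and 49.0 with IgG against 81.2 and 72.6 with 4E-T. It was called higher (0.47 ± 0.15, limma adjusted p = 0.0135), though not without IgG library 2 (0.29) or without 4E-T library 1. Nor was it called with median ratio scaling (0.28, limma adjusted p = 0.0972) or quantile normalisation (0.25, limma adjusted p = 0.102). The call was also lost with the length trend removed (limma adjusted p = 0.0520) and with no filter (limma adjusted p = 0.0562). Klhl9 had a difference of 0.29 (limma adjusted p = 0.0864) and Klhl21 of 0.04 (limma adjusted p = 0.827). Keap1, the sensor that holds Nrf2 in check (ENSMUSG00000003308.15; chromosome 9, 21229730 to 21239332), had 25.5 and 24.3 with IgG against 34.9 and 34.4 with 4E-T. Its libraries agreed closely within each antibody, and it was higher by 0.46 ± 0.14 (limma adjusted p = 0.00685), but not without IgG library 2 (limma adjusted p = 0.0856) or with median ratio scaling (0.28, limma adjusted p = 0.0523). The transcript of its target, Nfe2l2, was higher by 0.60 ± 0.16 (limma adjusted p = 0.00240), and the ratio of Keap1 to Nfe2l2 overlapped between antibodies (0.519 and 0.598 against 0.448 and 0.578).

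Klhl8, Klhl18 and Klhl36 were also higher, by 0.42, 0.40 and 0.36. None of the 3 was called with median ratio scaling, with the length trend removed, or without either IgG library. Klhl5, at 45.7 and 38.7 against 55.9 and 51.3, did not overlap and missed the threshold (0.34, limma adjusted p = 0.0532), and Klhl12, a receptor for the coat protein Sec31, had 0.31 (limma adjusted p = 0.0696). Klhl7, Klhl11, Klhl15, Klhl20, Klhl23, Klhl24, Klhl26, Klhl28, Klhl32 and Klhl42 had differences from -0.12 to 0.28 and were not called.

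Of the 28 members called higher, 12 were called in every alternative run: Cul7, Cul9, Fbxw7, Fbxl4, Fbxo5, Fbxo10, Fbxo30, Fbxo38, Fbxo46, Klhl2, Klhl22 and Klhl25. No alternative scaled the libraries by their total reads. In the authors' deposited table, at an adjusted DESeq2 p under 0.05, 27 members were higher, and all 27 are among the 28 (Fbxl19 was not). Over all listed genes 20.0% were higher and 11.9% lower in the authors' deposited table. Its 6 lower members were Fbxw4, Klhl3, Fbxl13, Fbxw18, Fbxw20 and Fbxw24, and of these Fbxw4 alone passed the FPKM minimum.

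Exon length moved with the difference over all tested genes. In 4 length groups of nearly equal size, their median log2 difference was 0.00 in the shortest, then 0.16, 0.20 and 0.29 in the longest. The median tested member had 3894 bp of exon and the median tested gene 3175 bp. In the same length groups the tested members had medians of 0.13 (8 genes), 0.20 (18), 0.33 (34) and 0.24 (24). The members' medians did not rise at every step, and 16 of the 28 higher calls lay in the group from 3175 to 4650 bp, which held 34 tested members. From the shortest group to the longest, 1, 4, 16 and 7 members were called higher. Over all tested genes the shares called higher in these groups were 18.4%, 33.5%, 38.9% and 46.5%. Cul7 and Cul9 had exon lengths of 5530 and 8451 bp and Cul1 3161 bp. With the length trend removed, 20 members were higher (23.8%, background 25.0%) and 9 lower (10.7%, background 22.0%).

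**Figure D4:**
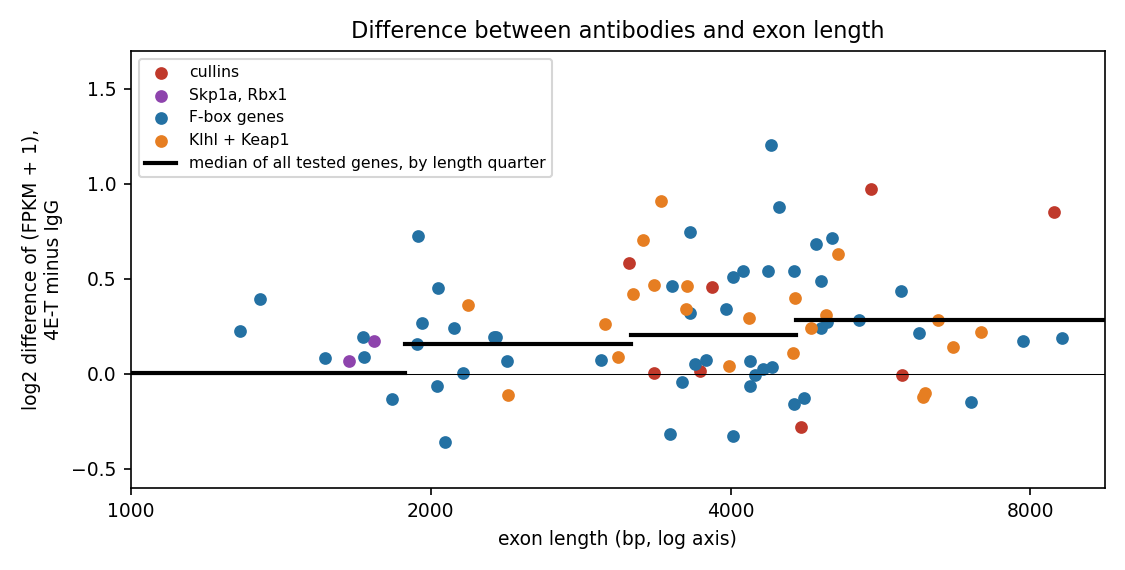
Log2 difference between antibodies (4E-T minus IgG, log2 of FPKM + 1) against exon length (bp, log axis) for the tested cullins, Skp1a and Rbx1, F-box genes and Kelch genes; black bars are the medians of all tested genes in 4 groups by exon length. The bars rise from 0.00 to 0.29, and members of like length, such as Cul3 at 4709 bp and Fbxo38 at 4388 bp, lie far apart.

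The 26 members under the FPKM minimum had 2009 and 1982 reads in all with IgG against 1465 and 1442 with 4E-T. The 4E-T libraries lay below the IgG libraries for 14 of them and above for 6, against 48.6% and 12.7% of all genes that were not tested. Fbxw13, Fbxw18, Fbxw19, Fbxw20, Fbxw22 and Fbxw24 lie close together on chromosome 9 (between 109179227 and 109702700). They had in sum 60 and 113 reads in the IgG libraries but 3 and 6 in the 4E-T libraries. No source used here says how reads that fit several related genes were counted. All 6 were below IgG in both 4E-T libraries, and Fbxw18 had 5 and 24 reads in the IgG libraries and 0 and 0 in the 4E-T libraries. Every listed gene reached a lowest mean normalised signal over the libraries, which the 4E-T reads of these 6 were too few to reach alone. They could be listed only through their IgG reads. Their direction was therefore largely set by listing, and no conclusion about the antibodies is drawn from it. Genes of olfactory receptors, which neural precursors are not known to use, had the same direction, with 2257 and 2900 reads over 144 genes against 436 and 563, and their part in the result was not tested. Listing may have set part of the direction of these receptor genes too, which was not tested either. The muscle receptor genes Klhl31, Klhl40 and Klhl41 had at most 17, 14 and 16 reads in any library, too few for a comparison. The rest (Fbxl2, Fbxl8, Fbxl13, Fbxl21, Fbxl22, Fbxo15, Fbxo24, Fbxo41, Fbxo47, Fbxo48, Fbxw10, Klhl3, Klhl4, Klhl10, Klhl29, Klhl33 and Klhl34) had FPKM of at most 0.799.

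Genes that regulate cullins, receptors under other symbols and substrates were read from lists, with medians set against 0.16 for all tested genes and shares of calls against 34.3% higher and 15.2% lower. Cullins are switched on by the ubiquitin-like protein Nedd8, switched off by the COP9 signalosome, and passed between receptors by the exchange factor Cand1. Of 24 such genes 7 were higher (29.2%) and 2 lower (8.33%), with a median log2 difference of 0.16. Cand1 had FPKM of 25.7 and 20.3 with IgG against 56.8 and 43.4 with 4E-T, and its relative Cand2 9.39 and 7.46 against 20.4 and 15.7. Both were higher, by 1.09 ± 0.16 and 1.01 ± 0.15 (limma adjusted p = 3.71e-06 and 4.87e-06), as was the signalosome gene Gps1 by 0.50. Dcun1d1, which helps to load Nedd8 onto cullins, was lower by -0.58 ± 0.15 (limma adjusted p = 0.00199), and the Rbx1 inhibitor gene Glmn by -0.36.

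Among 14 other core subunits and partner enzymes 3 were higher (21.4%) and 4 lower (28.6%), and the median was 0.02. Ddb1, the adaptor of Cul4a and Cul4b, had FPKM of 110 and 91.5 with IgG against 288 and 221 with 4E-T. It was higher by 1.32 ± 0.17 (limma adjusted p = 4.32e-07), while neither of its scaffolds was called. The conjugating enzyme gene Cdc34 (0.55) and the ligase gene Arih1 (0.49) were higher. Ube2d1 (-0.62 ± 0.14), Rnf7, the RING partner of Cul5 (-0.44 ± 0.15), and the elongin gene Eloc (-0.42 ± 0.14) were lower.

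F-box genes under other symbols were all called higher where tested, 4 of 4, with a median of 0.69: Kdm2b (0.74), Ccnf (0.71), Kdm2a (0.67) and Btrc. Kdm2a and Kdm2b are histone demethylase genes as well. Of 11 tested BTB-Kelch genes under other symbols 7 were higher (63.6%) and 0 lower at an adjusted p under 0.05 (median 0.51), led by Kbtbd4 (0.97), Enc1 (0.84) and Kbtbd11 (0.77). Of 72 tested receptors of other kinds 23 were higher (31.9%) and 9 lower (12.5%), with a median of 0.17. Socs3 (1.22), Ambra1 (0.95) and Dcaf13 (0.79) rose, and the lower calls included larger changes than any among the members. Spop, a BTB receptor of Cul3, had FPKM of 111 and 120 with IgG against 37.7 and 35.8 with 4E-T, a fall of 3.09-fold (-1.63 ± 0.15, limma adjusted p = 1.36e-09). Dcaf12 (-0.98 ± 0.15) and Vhl, the tumour suppressor receptor of Cul2 (-0.92 ± 0.14), also fell.

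Among 36 tested genes that encode known substrates, 20 were higher (55.6%) and 3 lower (8.33%), with a median of 0.43. Notch1 (1.42), Notch2 (1.22) and Mtor (1.05) led the higher genes, and the products of Notch1 and Mtor are known substrates of Fbxw7. The circadian clock gene Cry2 had 39.2 and 41.2 with IgG against 22.7 and 23.3 with 4E-T and was lower by -0.78 ± 0.14 (limma adjusted p = 4.17e-05), and Cdkn1c (-0.40) and Ccne2 (-0.37) were lower too.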

How the data were processed

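RNA from 2 4E-T and 2 IgG precipitates was compared. The submitters' processing notes name, without roles or settings, HTSeq 0.6.1p2, STAR 2.6.0c, Trim Galore 0.5.0 and FastQC 0.11.5, the build mm10, and, as the authors' tools, DESeq and DESeq2 1.26.0. Per the labels' protocols, the RNA came from a Magna RIP kit and libraries from SMART-Seq v4 and Nextera XT. Per the file headers, the authors deposited FPKM per library, a mean normalised signal (baseMean), log2 fold changes with standard errors, a test statistic (a score), p-values and a linear fold change. The lowest baseMean in the deposited table was 2.63.

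Whole read numbers could be recovered from the FPKM and baseMean (100% of 86952 values, tolerance 0.01 read), and with them exon lengths, set to scale on 10 mitochondrial genes. They gave the depth, 72769612 to 85828188 reads per library. limma 3.58.1 (R 4.3.3; trend, robust) compared the antibodies on log2(FPKM + 1), with no other term, over all genes with FPKM of at least 1 in 2 libraries. With 2 residual degrees of freedom per gene it leans on a spread shared across genes. The script was tested on simulated data. Members, gene lists and tests were chosen with earlier results of these data known. Named genes were the cullins and shared subunits, up to 6 called members per direction and the 2 most abundant in each receptor family, and up to 3 per direction in each list; further members were named after their values were seen. Alternatives were other pseudocounts, filters and scalings, a length trend, the replicate block, each library left out and, chosen after seeing the data, voom. All 110 members matched a RefSeq gene (GRCm38.p6). Not every member is reported by name here.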

Additional observations from a re-analysis of the deposited data

How the results depend on the processing

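Of the 28 higher calls none changed sign in any alternative. The numbers of members higher and lower were 17 and 6 with median ratio scaling (20.2% and 7.14%, against 22.8% and 23.6% of all tested genes), 18 and 6 with quantile normalisation, and 20 and 9 with the length trend removed. They were 24 and 3 with no filter, where the lower members (Fbxl13, Fbxw20 and Fbxw24) are genes of few reads, 28 and 2 at a minimum FPKM of 5, and 29 and 2 with voom on recovered reads. Leaving out single libraries gave 12 to 26 higher and 0 to 1 lower members, with 12 without IgG library 2; an arm of 1 library is then assumed to vary like the other. The deposited scaling put the median tested gene at 0.16, and median ratio scaling at 0.00 (-0.0025), which flipped the sign of 19 uncalled members; changes are read against that shift. The share of calls that were higher over all tested genes went from 69.3% to 49.2%. With the replicate block (Exp1 and Exp2) 34 members were higher and 3 lower; deviations of same-numbered libraries correlated at 0.0637, so the numbers were not taken as pairs. The planned count models (edgeR, DESeq2) were not run, although whole reads could be recovered. The use of voom on those reads was chosen after seeing the data, and it kept the deposited scaling of the libraries.

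With median ratio scaling the medians by role were 0.056 (cullins), -0.067 (Skp1a and Rbx1), -0.0498 (Fbxw), 0.016 (Fbxl), 0.074 (Fbxo) and 0.11 (Klhl). With quantile normalisation they were 0.047 (cullins), -0.062 (Fbxw), 0.036 (Fbxl), 0.13 (Fbxo) and 0.11 (Klhl), and with the length trend removed 0.065 (cullins), -0.10 (Fbxl), 0.13 (Fbxo) and 0.10 (Klhl). With no filter, which adds low genes, they were -0.084 (Fbxw), 0.074 (Fbxl) and 0.18 (Klhl), and the cullin minus receptor median was 0.13. Leaving out single libraries gave medians of 0.10 to 0.40 (cullins), 0.10 to 0.20 (Fbxl), 0.20 to 0.34 (Fbxo) and 0.21 to 0.38 (Klhl), and -0.077 to 0.11 for cullins minus receptors. Except where a setting's construction shows it, the cause was not tested.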
